A study of Mus musculus with 12 samples.

Results

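The genes described here encode the parts of the proteasome other than its interferon-induced catalytic subunits. They were taken as every gene whose symbol starts with Psma, Psmb, Psmc, Psmd or Psme and a digit, leaving out Psmb8, Psmb9, Psmb10 and symbols of pseudogenes. This gave 42 of the 37991 genes in the count table, and all 42 passed the filter on low counts, as did 18981 genes in all. The symbols do not all name a constitutive subunit. Psma8 and Psmb11 belong to proteasomes of testis and of thymic epithelium. Over the libraries Psma8 had 1.64 to 3.65 and Psmb11 1.74 to 3.09 CPM (counts relative to a library size scaled by TMM). Psmc3ip, named after a partner of Psmc3, is known for its role in meiotic recombination. Psme2b is a near copy of Psme2, and Psmd5, Psmd9 and Psmd10 are assembly chaperones. The other 35 genes are 14 subunits of the core particle, 17 of the regulatory particle and 4 activators.

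The RNA came from dendritic cells that had been grown in culture out of mouse bone marrow, of strain C57BL/6 in every group. Dendritic cells take up material and present it to T cells. The 4 groups of 3 libraries were cells labelled Vav1/2/3-/- (KO) with curdlan (libraries 2, 4 and 5) and without it (1, 2 and 5), and wild-type (WT) cells with curdlan (1, 2 and 4) and without it (1, 2 and 4). Curdlan is a beta-glucan particle recognised by the receptor Dectin-1. The labels give it for 3 hours at 200 mg/ml, a unit that could not be checked. The design sets curdlan against no curdlan within each genotype, and the genotypes against each other within each state. Ages, sexes and whether libraries of a group came from separate animals or cultures are not in the labels, so the p-values reflect only how much these libraries vary, and part of that variation may be technical.

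The proteasome degrades proteins tagged with ubiquitin. Its barrel-shaped core particle stacks rings of alpha subunits, which gate the entrance, on rings of beta subunits, of which Psmb5, Psmb6 and Psmb7 carry the cutting sites. A regulatory particle with a ring of ATPases and a lid binds, unfolds and feeds in the substrate. Psme1 and Psme2 form another cap, and in dendritic cells this cap and the interferon-induced subunits are known for making peptides that class I MHC molecules present.

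Library totals ran from 41421718 to 61217861 counts. Vav1 and Vav2 were not lower in the libraries labelled KO. Vav2 had 265 to 325 CPM in libraries labelled KO and 65.0 to 72.7 CPM in WT libraries, and Vav1 had 198 to 330 CPM and 130.5 to 179 CPM. Vav3 had 22.7 to 32.5 CPM in curdlan libraries labelled KO and 28.3 to 36.9 CPM in WT curdlan libraries, which overlapped. Without curdlan it had 31.5 to 40.0 CPM in libraries labelled KO and 21.6 to 28.9 CPM in WT libraries, and was higher in those labelled KO by 0.48 (edgeR, adjusted p = 0.0225). Counts cover whole genes, so reads outside a deletion count too, and the direction of every comparison below rests on the labels. Each group had its own sequencing lane, so lane and group cannot be told apart. Summed markers of dendritic cells (8 of 8 genes) ran from 15600 to 21900 CPM in KO-labelled and from 9360 to 9860 CPM in WT libraries. Cd74, H2-Aa and H2-Ab1 made up most of this sum, and other members of the list went the other way: Itgax averaged 945 and 788 CPM in KO-labelled cells with and without curdlan and 1340 and 1490 CPM in WT cells, and the group means of Ccr7, Batf3 and Zbtb46 were also lower in KO-labelled cells within each state. The 6 macrophage markers summed to 14900 to 19200 CPM and 12000 to 13600 CPM, the 6 neutrophil markers to 4940 to 7970 CPM and 3110 to 4700 CPM, and the 3 mast cell and basophil markers to 83.0 to 141 CPM and 14.3 to 20.8 CPM, each with the KO-labelled libraries given first. The 4 B cell markers summed to 1.31 to 1.72 CPM in KO-labelled and 22.9 to 30.1 CPM in WT libraries. T cell markers summed to 2.85 to 5.75 CPM and 1.17 to 1.57 CPM in the same order, with Cd3e at 0 in 7 libraries. The 2 NK cell markers summed to 0.743 CPM at most, with Ncr1 at 0 in 9 libraries, and the 2 globin genes to 1.18 CPM at most, and both sums overlapped between the labels. The other 6 sums did not overlap between the labels, and the part of these cell types in the differences given here was not tested. In such bulk samples fewer cells of a type and less RNA per cell cannot be told apart.

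Proteasome transcripts were abundant and steady. Per kilobase of exon, Psma6, an alpha ring subunit, had the highest mean level over the groups at 133 CPM, followed by the lid subunit Psmd8 at 108 and Psme2 at 87.4 CPM per kilobase. The catalytic subunits Psmb6, Psmb5 and Psmb7 had 70.1, 70.0 and 27.0 CPM per kilobase. The ATPases ran from 17.1 (Psmc2) to 51.5 CPM per kilobase (Psmc5), and the assembly chaperones from 2.86 (Psmd9) to 22.6 (Psmd10). Psmc3ip, Psma8 and Psmb11 were lowest, at 1.16, 1.02 and 0.498 CPM per kilobase. The exon length counts every annotated isoform, so levels of genes with long rarely used exons are understated.

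**Figure D1:**
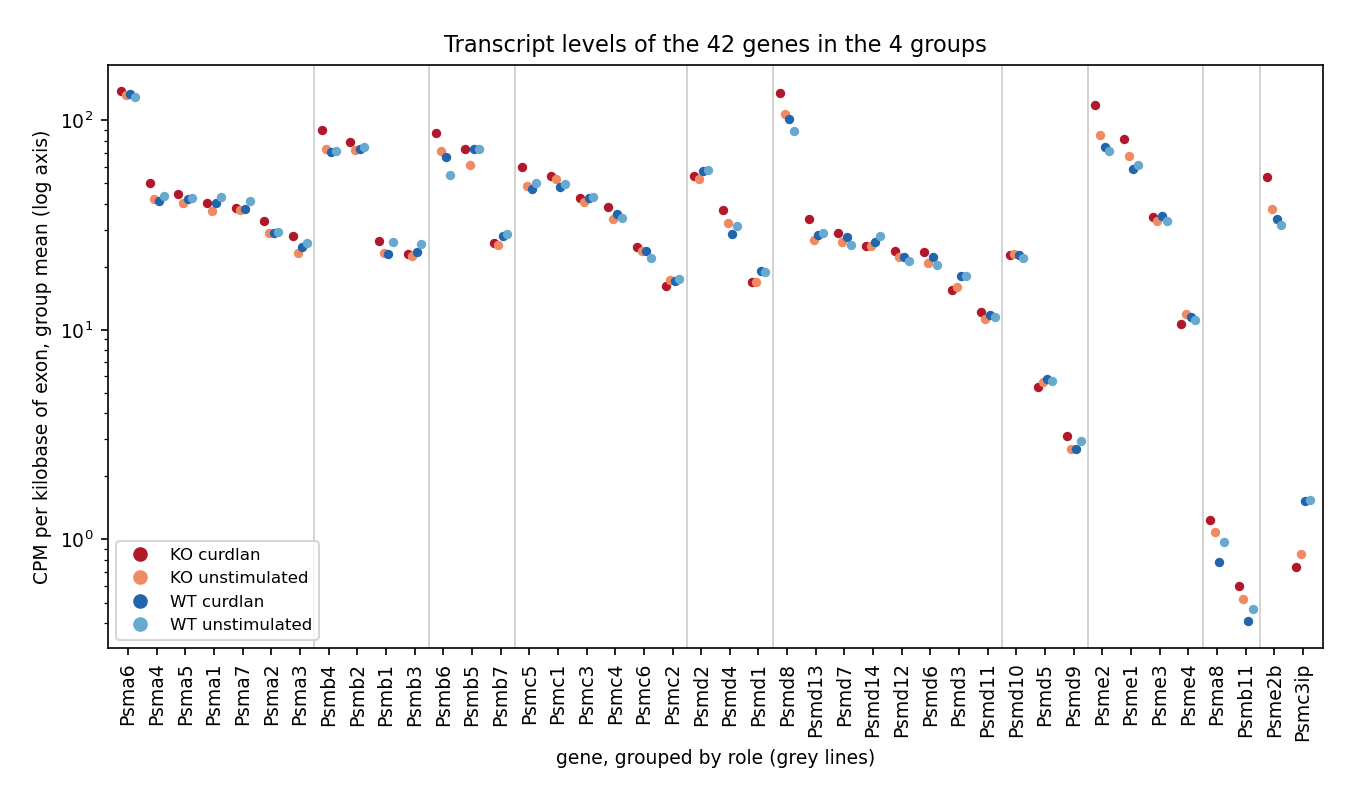
Mean level of each gene in the 4 groups, in CPM per kilobase of exon on a log axis, with genes sorted by role and then by level. Within most genes the 4 points nearly coincide, while genes span levels from 0.498 (Psmb11) to 133 (Psma6) CPM per kilobase.

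In 33 of the 42 genes (78.6%) the highest of the 12 libraries was less than 1.5 times the lowest, against 34.7% of the 9101 tested genes with a mean of at least 10 CPM. The median of that ratio was 1.27 over the 42 genes and 1.66 over the 9101. Psma8, Psmb11 and Psmc3ip lay below 10 CPM in every library. Without these genes and Psme2b, the share under 1.5 was 33 of 38 (86.8%). The sets were not matched by level, which can affect the ratio. Psmc3 varied least, from 105 to 115 CPM. The widest were Psmc3ip with a ratio of 3.10, Psma8 with 2.23, Psme2b with 2.12, Psme2 with 1.98 and Psmb6 with 1.88.

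The summed level of the 42 genes was 4243 ± 212 CPM in KO-labelled libraries with curdlan, 3793 ± 58 CPM in KO-labelled libraries without it, 3812 ± 108 CPM in WT libraries with curdlan and 3792 ± 34 CPM in WT libraries without it (SD, n = 3 each). As a share of all counts, with no scaling between libraries, the same genes took 0.368%, 0.377%, 0.392% and 0.428%, so KO-labelled curdlan libraries, highest by CPM, were lowest by share, and WT libraries without curdlan were highest by share. The CPM sums of the other 3 groups lay within their SDs of each other. The CPM use TMM scaling factors, which were 0.863 to 0.871 in KO-labelled curdlan libraries and 1.11 to 1.15 in WT libraries without curdlan. With library size alone the median of all 18981 genes moved to -0.20 for curdlan in KO-labelled cells, -0.17 for curdlan in WT, -0.06 for the difference of the curdlan responses, -0.19 for KO-labelled against WT without curdlan and -0.24 with it, on the log2 scale. Relative to the median of all genes, the median of the 42 genes was the same to 2 decimals under both scalings in all 5 comparisons (0.14, 0.02, 0.12, -0.01 and 0.07 in that order).

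**Figure D2:**
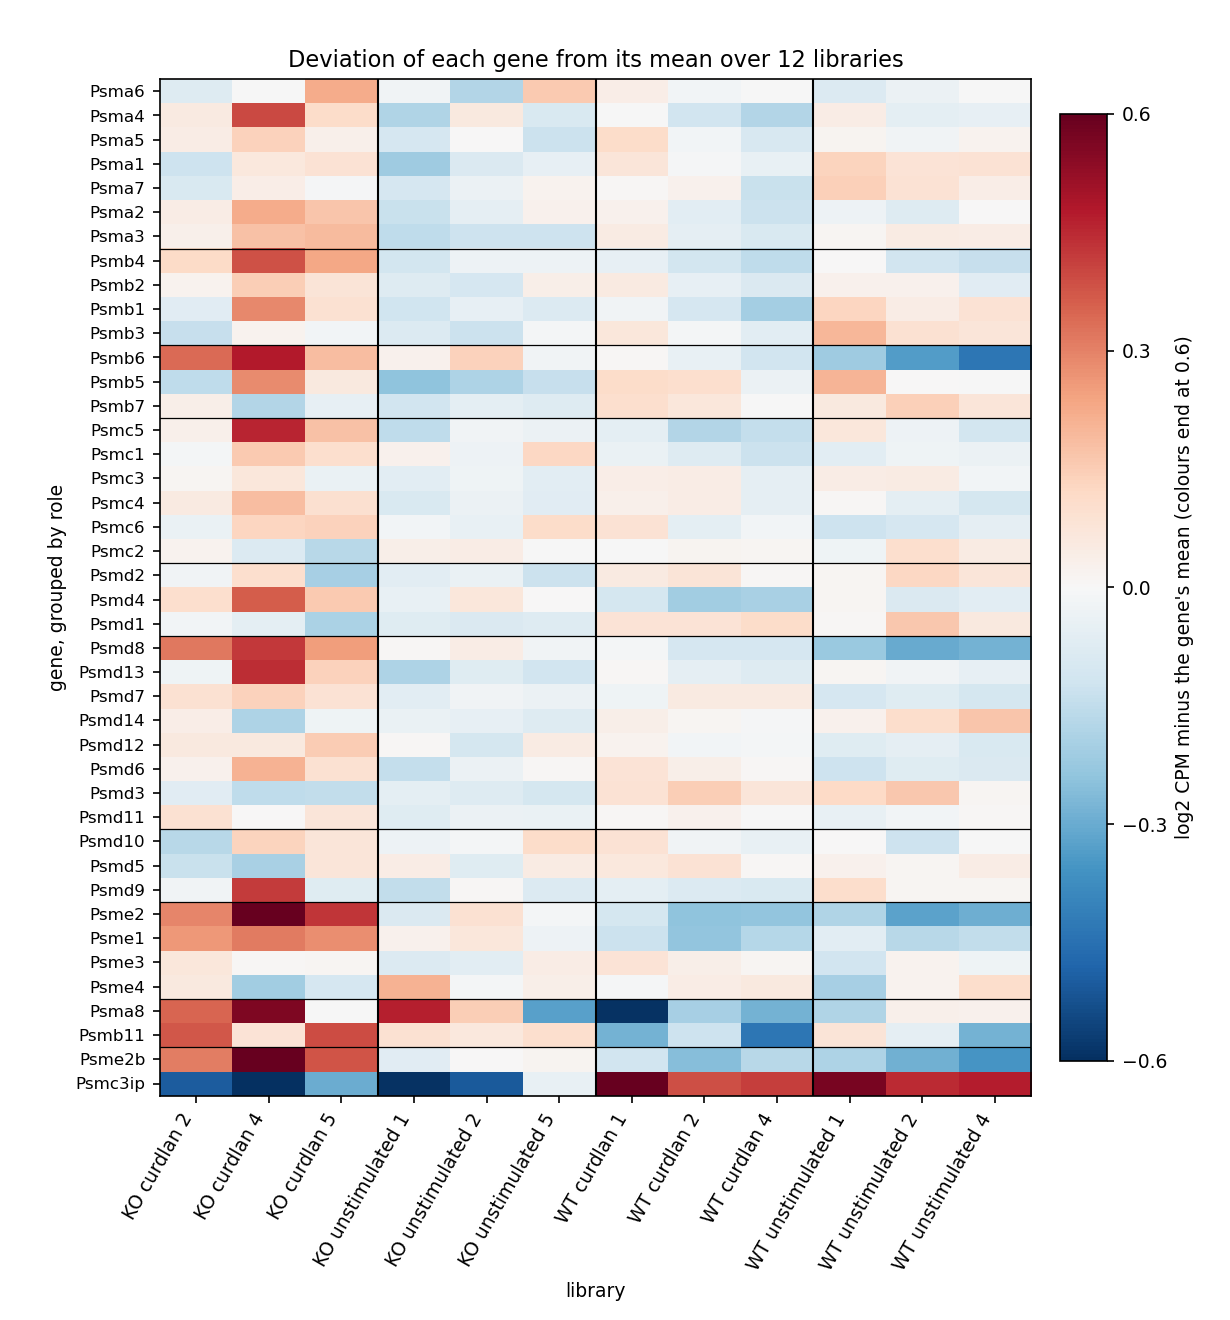
Heat map of log2 CPM minus the mean of the gene over the 12 libraries, with genes in rows sorted by role and libraries in columns sorted by group. KO-labelled curdlan library 4 held the highest value of many genes, and Psmd8, Psmb6, Psme1 and Psme2 were above their means in all 3 KO-labelled curdlan libraries.

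In KO-labelled cells the genes past the threshold were all higher with curdlan under TMM scaling. Of the 42 genes, 10 were higher past an adjusted p of 0.05, against 14.0% of all tested genes. These were Psme1, Psme2 and Psme2b, the core subunits Psma3, Psmb4 and Psmb6, the ATPases Psmc4 and Psmc5, and the lid subunits Psmd8 and Psmd13. None was lower, against 14.6% of all tested genes. At an unadjusted p under 0.05, 18 were higher and 0 lower. The shares of all genes at this cut were not counted, and cannot be below the 14.0% and 14.6% of the adjusted cut. DESeq2 called 14 higher and 0 lower, and 2764 and 2858 over all genes. The median change of the 42 genes was 0.14 log2 units and that of all tested genes was -8e-04. With library number as a term, a pairing that is not settled, the median of the 42 genes was 0.08. In that fit 7 calls remained, without Psmc4, Psmc5 and Psmd13, and 2737 of all tested genes were higher. For 38 of the 42 genes (90.5%) the 95% interval lay within 1.5-fold in either direction, as it did for 48.4% of all tested genes, many of which had fewer counts. The count was 16 without KO-labelled curdlan library 2, 6 without KO-labelled curdlan library 4 and 5 without KO-labelled unstimulated library 1. Over all tested genes 3038, 2029 and 1710 were higher in these fits, against 2658 with all libraries. With library size alone 2 of these calls remained, Psme2 and Psme2b, and 6 other genes were lower. Calls over all tested genes were 49.0% higher under TMM and 17.9% with library size alone.

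In WT cells curdlan moved fewer of them. Psmb6 and Psmd8 were higher (2 of 42, against 11.4% of all tested genes) and none was lower (against 8.40%). At an unadjusted p under 0.05, 3 were higher and 1 lower. The shares of all genes at this cut were not counted, and cannot be below the 11.4% and 8.40% of the adjusted cut. DESeq2 also called 2 higher and 0 lower, and 2386 and 1779 over all genes. The median change was -0.02 log2 units over the 42 genes and -0.03 over all tested genes, and 41 of 42 intervals (97.6%) lay within 1.5-fold, against 54.7% of all intervals. Both calls were lost without any of WT curdlan libraries 1, 2 and 4 or WT unstimulated libraries 2 and 4, and Psmb6 alone remained without WT unstimulated library 1. Over all tested genes 1454 to 1890 were higher in these fits, against 2164 with all libraries. With library number as a term 2 more genes passed the threshold, and both were lower, while over all 18981 genes 3750 were lower in that fit and 1595 without the term. These were Psmb1, with a change of -0.20 (adjusted p = 0.0182), and Psma8, with -0.32 (adjusted p = 0.0423). Calls over all tested genes were 57.6% higher under TMM, 46.3% under upper-quartile scaling and 25.1% with library size alone.

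The curdlan responses of the genotypes were then set against each other in the same fit. Only Psme1 passed the threshold (1 of 42 higher, against 1.61% of all tested genes), and 0 of 42 were lower, against 3.60%. At an unadjusted p under 0.05, 11 genes were higher and 0 lower. The shares of all genes at this cut were not counted, and cannot be below the 1.61% and 3.60% of the adjusted cut. DESeq2 called 6 higher and 0 lower. Over all genes it called 907 higher and 1273 lower, where edgeR called 305 and 684. The median difference was 0.12 over the 42 genes and -1e-04 over all tested genes. The count was 9 without KO-labelled curdlan library 2, where 1323 of all tested genes were higher and 1514 lower. It was 0 without any one of the other 11 libraries, where 85 to 257 of all tested genes were higher. With library number as a term Psma3 also passed, with a difference of 0.30 (adjusted p = 0.0475), while over all 18981 genes 1059 were higher in that fit and 305 without the term. Over all tested genes 30.8% of the calls of this difference were higher under TMM, 42% under upper-quartile scaling and 15.7% with library size alone.

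Between genotypes without curdlan, 3 of the 42 genes were higher in KO-labelled cells (Psmb6, Psmd8 and Psme2, against 21.1% of all tested genes). Another 6 were lower (Psma1, Psma3, Psmb3, Psmb7, Psmd3 and Psmc3ip, against 23.3%). Both shares were below those of all genes. The median was -0.02 log2 units over the 42 genes and -0.01 over all tested genes, and 40 of 42 intervals (95.2%) lay within 1.5-fold, against 42.9% of all. The count of lower genes was 1 without KO-labelled unstimulated library 1 or 2 or WT unstimulated library 1 or 2, and 3 without KO-labelled unstimulated library 5 or WT unstimulated library 4. Over all tested genes 3730 to 3995 were lower in these fits, against 4421 with all libraries. With library size alone none of the 3 higher calls remained and 23 genes were lower, and the share of higher calls over all tested genes was 47.5% under TMM and 26.4% with library size alone.

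With curdlan, 15 of the 42 genes were higher in KO-labelled than in WT cells, against 24.7% of all tested genes, and 3 were lower, against 26.8%. The higher ones were Psma2, Psma3, Psma4, Psma8, Psmb1, Psmb4, Psmb6, Psmb11, Psmc1, Psmc5, Psmd4, Psmd8, Psme1, Psme2 and Psme2b, and the lower ones were Psmd1, Psmd3 and Psmc3ip. The median was 0.08 over the 42 genes and 0.01 over all tested genes. Without KO-labelled curdlan library 4 the higher count was 9, and over all tested genes 4128, against 4682 with all libraries. With library size alone it was 3 (Psme1, Psme2 and Psme2b), and 19 genes were lower, and the share of higher calls over all tested genes was 48.0% under TMM and 23.7% with library size alone. The authors' deposited table of this comparison called 10 of the 42 genes higher, against 17.2% of its genes, and 2 lower, against 19.9%. All 12 were also called here. This comparison shares the KO-labelled curdlan libraries with the curdlan response above, so the calls of the comparisons are not independent.

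**Figure D3:**
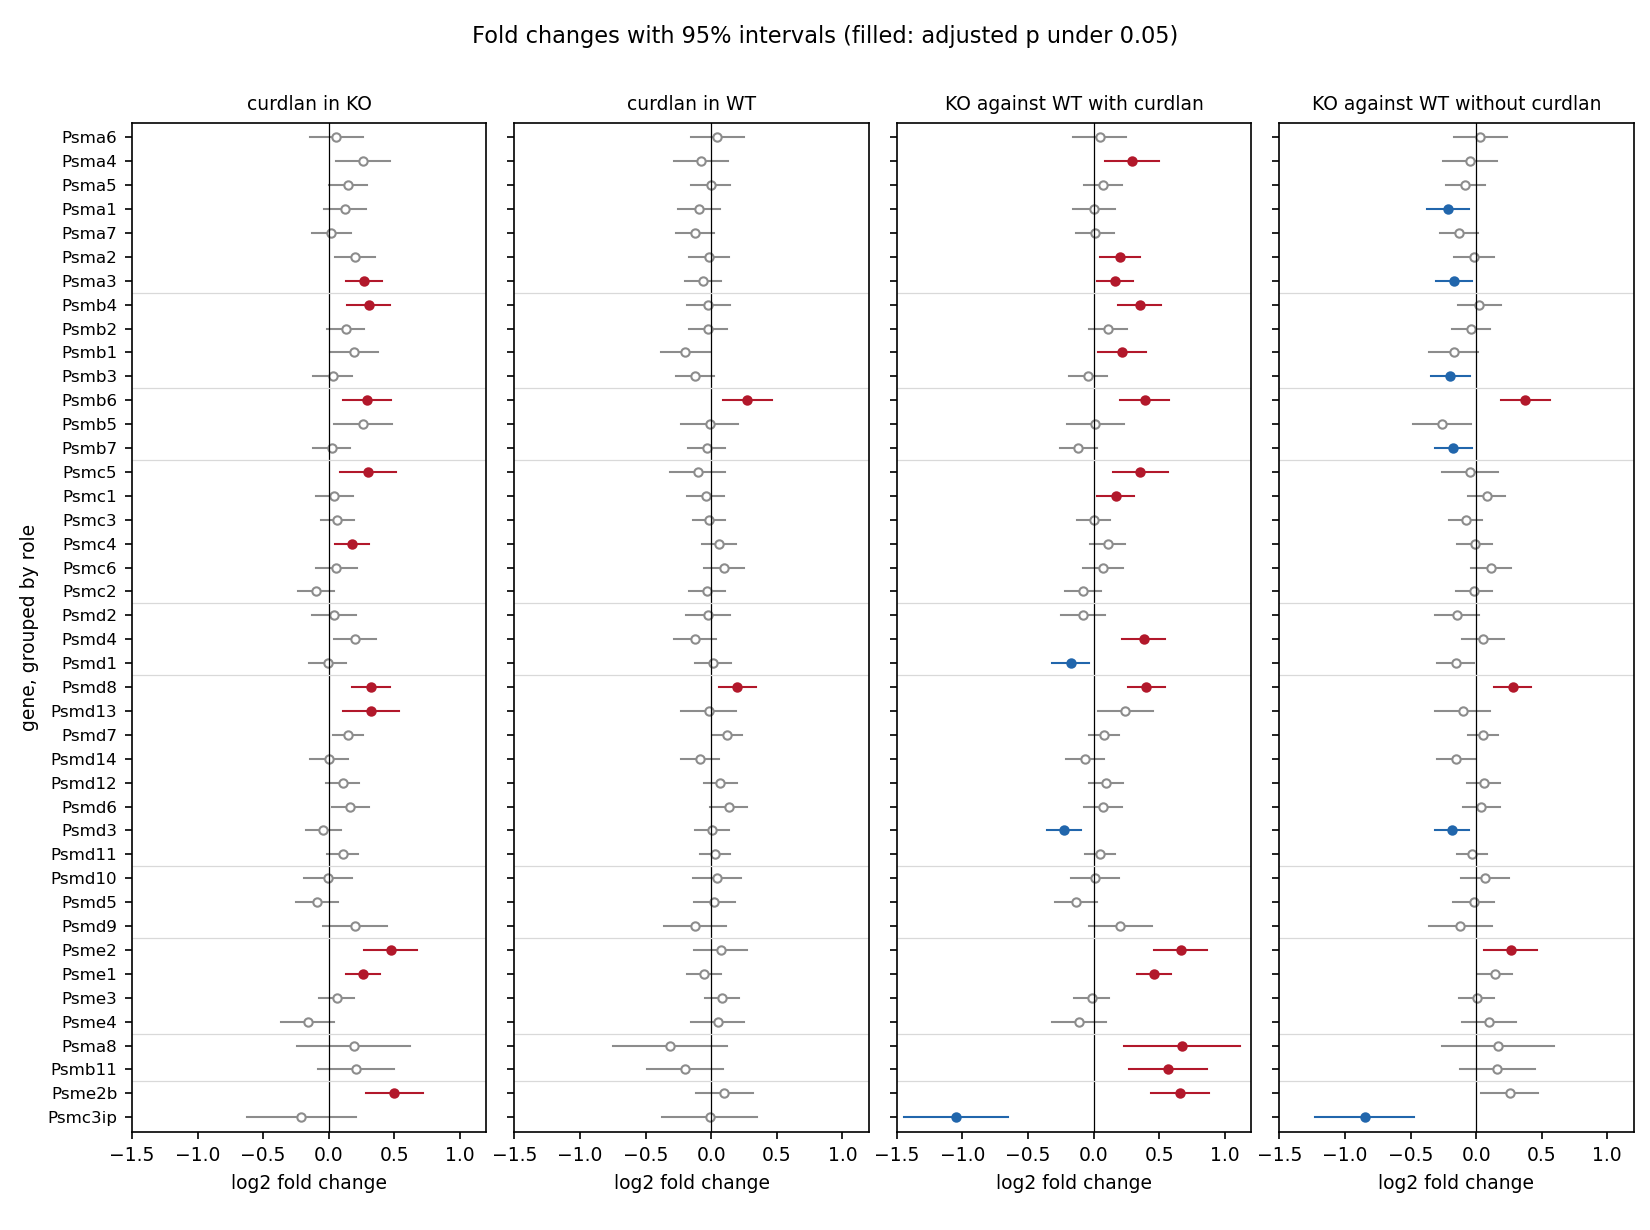
Log2 fold changes of the 42 genes (points) with 95% intervals (lines) in 4 comparisons, with genes in rows sorted by role. Filled red and blue points passed an adjusted p of 0.05 upward and downward, and open points did not. The KO-labelled against WT comparison with curdlan holds the most filled points, 15 red and 3 blue.

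The alpha ring forms the outer gate of the core particle, and its 7 genes gave small changes. Values of the libraries of a group stand in the order of their numbers in the opening. Psma4 had 108, 137 and 113 CPM in KO-labelled curdlan libraries, 92.0, 109 and 98.0 CPM in KO-labelled libraries without it, 104, 96.4 and 92.3 CPM in WT curdlan libraries and 107, 99.98 and 101 CPM in WT libraries without it. The KO-labelled curdlan values lay above all WT curdlan values, and Psma4 was higher by 0.29 ± 0.10 log2 units (SE, adjusted p = 0.0218), a call lost without KO-labelled curdlan library 4 or WT curdlan library 2 or 4. Psma1 had 102, 111 and 114 CPM in KO-labelled unstimulated libraries and 129.5, 125 and 125 CPM in WT unstimulated libraries. These groups did not overlap, and Psma1 was lower in KO-labelled cells at a log2 change of -0.21 ± 0.07 (adjusted p = 0.0294), a call kept in 1 of the 6 fits that each left out a library. With curdlan the same gene had 108, 123 and 125 CPM in KO-labelled libraries and 124, 117 and 115 CPM in WT libraries, and the groups overlapped (log2 change 0.00, interval -0.15 to 0.16). Psma3 had 101, 112 and 113 CPM in KO-labelled curdlan libraries and 89.1, 90.8 and 90.8 CPM in KO-labelled unstimulated libraries. It was higher with curdlan by 0.27 ± 0.06 (adjusted p = 0.00818), without overlap and with each library left out in turn. Psma2 was higher in KO-labelled than in WT cells with curdlan by 0.20 ± 0.07 (adjusted p = 0.0321), a call kept in 2 of the 6 fits that each left out a library. Psma5, Psma6 and Psma7 passed the threshold in none of the 5 comparisons under edgeR.

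Of the beta subunits without a cutting site, Psmb4 gave the clearest difference. It had 160.2, 193 and 174 CPM in KO-labelled curdlan libraries, 137, 145 and 145 CPM in KO-labelled libraries without it, 143, 137 and 133 CPM in WT curdlan libraries and 148, 136 and 135 CPM in WT libraries without it. The KO-labelled curdlan libraries stood above all 9 others. Psmb4 was higher by 0.31 ± 0.08 with curdlan in KO-labelled cells (adjusted p = 0.0102) and by 0.35 ± 0.08 in KO-labelled against WT cells with curdlan (adjusted p = 0.00196). The first of these calls was lost without KO-labelled unstimulated library 1. Psmb1 had 108, 138 and 121 CPM in KO-labelled curdlan libraries, 104, 109.7 and 107 CPM in KO-labelled libraries without it, 112, 106 and 98.4 CPM in WT curdlan libraries and 124, 117 and 121 CPM in WT libraries without it. Its WT curdlan values lay below all WT unstimulated values. The difference of its curdlan responses was 0.39 ± 0.12, the largest of the core particle's 14 subunits, with an adjusted p of 0.0756. Psmb3 had 49.3, 55.0 and 53.6 CPM in KO-labelled curdlan libraries, 51.3, 49.5 and 53.8 CPM in KO-labelled libraries without it, 56.7, 53.8 and 51.8 CPM in WT curdlan libraries and 62.3, 57.7 and 57.1 CPM in WT libraries without it. Without curdlan the labels did not overlap, and Psmb3 was lower at a log2 change of -0.20 ± 0.07 in KO-labelled cells (adjusted p = 0.0325), a call kept in 2 of the 6 fits that each left out a library. Psmb2 passed the threshold in none of the comparisons.

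The 3 catalytic subunits moved differently. Their genes lie on chromosome 11 (Psmb6, 70525367 to 70527858, plus strand), chromosome 14 (Psmb5, 54614119 to 54618022, minus strand) and chromosome 2 (Psmb7, 38588036 to 38644087, minus strand) of GRCm38. Psmb6, with the caspase-like site, had 164, 179.8 and 147 CPM in KO-labelled curdlan libraries, 131, 142 and 127 CPM in KO-labelled libraries without it, 129.6, 125 and 119 CPM in WT curdlan libraries and 111, 102 and 95.6 CPM in WT libraries without it. KO-labelled libraries lay above WT libraries of the same state, and curdlan libraries above unstimulated ones of the same label, without overlap. Psmb6 was higher by 0.37 ± 0.09 in KO-labelled against WT cells without curdlan (adjusted p = 0.00358) and by 0.39 ± 0.09 in its presence (adjusted p = 0.00229). It was higher with curdlan by 0.29 ± 0.09 in KO-labelled cells (adjusted p = 0.0242) and by 0.27 ± 0.09 in WT cells (adjusted p = 0.0408). These responses differed by 0.02, with an interval of -0.25 to 0.28. In KO-labelled cells the curdlan call was lost without KO-labelled curdlan library 4 or unstimulated library 1 or 5. In WT cells it was kept in 1 of the 6 fits that each left out a library.

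Psmb5, with the chymotrypsin-like site, had 56.2, 76.2 and 65.2 CPM in KO-labelled curdlan libraries, 52.9, 55.0 and 56.8 CPM in KO-labelled libraries without it, 67.5, 67.1 and 61.2 CPM in WT curdlan libraries and 72.0, 62.6 and 62.5 CPM in WT libraries without it. Its KO-labelled unstimulated values were below all WT unstimulated values, with a log2 change of -0.26 ± 0.10 that did not pass the threshold (adjusted p = 0.0523). Psmb7, with the trypsin-like site, had 94.7, 81.7 and 89.2 CPM in KO-labelled curdlan libraries, 85.3, 88.8 and 87.6 CPM in KO-labelled libraries without it, 99.1, 96.7 and 92.2 CPM in WT curdlan libraries and 96.3, 102 and 97.1 CPM in WT libraries without it. It was lower at a log2 change of -0.17 ± 0.07 in KO-labelled cells without curdlan (adjusted p = 0.0477), a call lost when any 1 of the 6 libraries was left out. The unstranded reads of Psmb7 and Nek6 cannot be separated over 11.8% of the exon length of Psmb7. Reads of Psmb5 may be split with the pseudogene Psmb5-ps, which had 117 to 282 counts a library.

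A ratio of genes within a library does not depend on the scaling between libraries. The pairs given here were chosen after their values were seen, and have no test. Per kilobase, Psmb6 over Psmb7 was 3.16, 4.02 and 3 in KO-labelled curdlan libraries, 2.81, 2.93 and 2.65 in KO-labelled libraries without it, 2.39, 2.36 and 2.36 in WT curdlan libraries and 2.11, 1.84 and 1.8 in WT libraries without it. The 4 groups did not overlap. Psmb6 over Psmb5 was 1.2 ± 0.17, 1.17 ± 0.09, 0.918 ± 0.020 and 0.754 ± 0.027 in the same order (SD, n = 3 each), and here the KO-labelled groups overlapped.

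**Figure D4:**
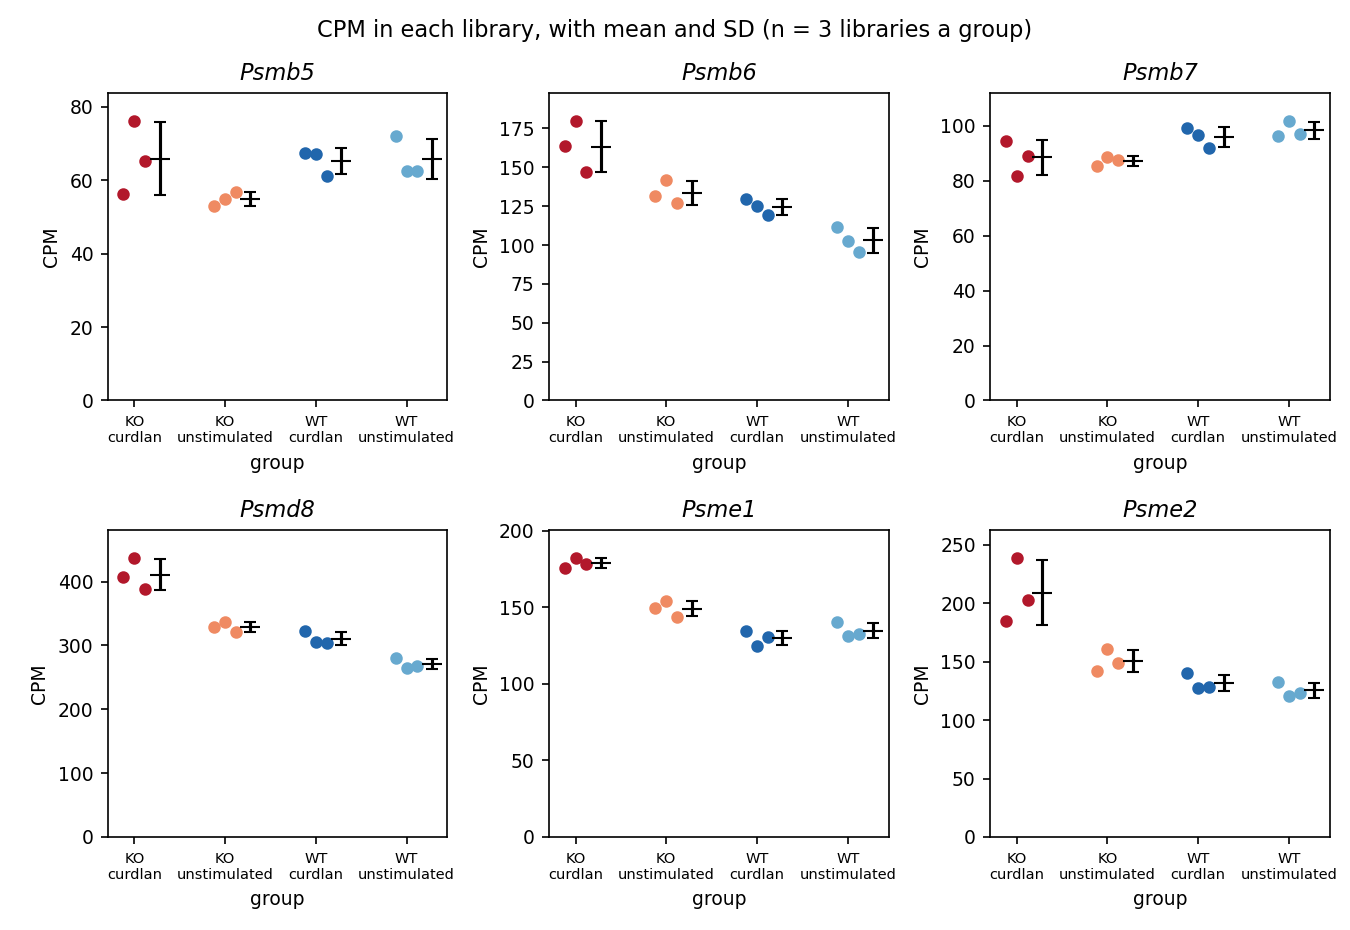
CPM of the catalytic subunits Psmb5, Psmb6 and Psmb7, the lid subunit Psmd8 and the activators Psme1 and Psme2 in each library (points), on linear axes from 0, with mean and SD beside them (n = 3 libraries a group). The group means of Psmb6 and Psmd8 step down from KO-labelled curdlan to WT unstimulated libraries, while Psme1 and Psme2 are highest in KO-labelled curdlan libraries and Psmb7 is lower in KO-labelled than in WT unstimulated libraries.

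The promoters of the genes with the clearest changes, and of Psmb5 for comparison with Psmb6, were read to show what lies before their starts. Each line gives the 120 bases before a RefSeq transcription start (GRCm38.p6), on the strand of the gene, and capitals mark TGACNNNGC, the core of the antioxidant response element to which Nrf proteins bind. Psmb5 (chr14:54617996-54618115), Psmd8 (chr7:29180674-29180793) and Psme2 (chr14:55591022-55591141, 1 of 2 starts) lie on the minus strand, and Psmb6 (chr11:70525237-70525356) and Psme1 (chr14:55578374-55578493) on the plus strand. The stretch of the other Psme2 start, chr14:55591102-55591221, is not printed. In the GENCODE annotation Psme1 starts at 55578123, so its printed stretch lies inside that gene. There Psmb5, Psmd8 and Psme2 start within their printed stretches, at 54618022, 29180701 and 55591113.
Psmb5: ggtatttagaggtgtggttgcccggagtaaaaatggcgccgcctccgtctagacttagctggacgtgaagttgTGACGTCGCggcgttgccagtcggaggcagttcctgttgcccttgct
Psmb6: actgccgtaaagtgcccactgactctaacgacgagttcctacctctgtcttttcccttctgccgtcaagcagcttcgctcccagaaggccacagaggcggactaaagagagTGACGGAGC
Psmd8: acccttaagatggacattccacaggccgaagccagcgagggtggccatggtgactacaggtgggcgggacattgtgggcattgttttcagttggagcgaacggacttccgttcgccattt
Psme1: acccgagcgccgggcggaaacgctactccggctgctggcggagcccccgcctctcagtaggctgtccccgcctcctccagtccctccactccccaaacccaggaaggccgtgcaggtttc
Psme2: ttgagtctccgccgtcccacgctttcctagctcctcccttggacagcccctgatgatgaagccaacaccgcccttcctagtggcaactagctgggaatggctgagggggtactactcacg

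RefSeq promoters were found for 35 of the 42 genes. On either strand of the 250 bases before the start, TGACNNNGC occurred in 5 of the 35 (Psmb5, Psmb6, Psmc6, Psmd9 and Psmd12), a share of 14.3% against 11.5% of the promoters of 27025 genes. In Psmb5 it lay 47 to 39 bases before the start and in Psmb6 9 to 1 bases before it. CCAAT, a common promoter box, occurred in 14 (40.0%, against 37.5%). The core of the interferon-stimulated response element, GAAA followed after any 2 bases by GAAA, occurred in Psmb3, Psmd4 and Psmd9 (8.57%, against 3.46%). A match says only that these letters are in the window, and the lack of a match says nothing of bases outside it.

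The ATPase ring unfolds substrates and opens the gate. Of its 6 genes Psmc5 changed most, with 72.6, 97.6 and 80.5 CPM in KO-labelled curdlan libraries, 64.1, 70.3 and 69.5 CPM in KO-labelled libraries without it, 68.3, 63.0 and 64.4 CPM in WT curdlan libraries and 74.7, 69.8 and 65.9 CPM in WT libraries without it. KO-labelled curdlan library 4 stood highest by far. Psmc5 was higher by 0.36 ± 0.10 in KO-labelled against WT cells with curdlan (adjusted p = 0.00867). The curdlan call in KO-labelled cells (0.30 ± 0.10, adjusted p = 0.0377) was lost with library number as a term (0.13, adjusted p = 0.187), and so were those of Psmc4 (0.13, adjusted p = 0.167) and Psmd13 (0.15, adjusted p = 0.12). Psmc1 was higher by 0.17 in KO-labelled against WT cells with curdlan (adjusted p = 0.0473), a call kept in 1 of the 6 fits that each left out a library. Psmc2, Psmc3 and Psmc6 passed the threshold in none of the comparisons.

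At the base of the regulatory particle, Psmd4, a ubiquitin receptor, and Psmd1, a scaffold, moved in opposite directions. Psmd4 had 97.2, 117 and 101 CPM in KO-labelled curdlan libraries, 87.9, 94.8 and 90.9 CPM in KO-labelled libraries without it, 84.1, 78.4 and 79.2 CPM in WT curdlan libraries and 91.3, 85.4 and 86.6 CPM in WT libraries without it. Every KO-labelled curdlan library lay above every WT library, and the change against WT with curdlan was 0.38 ± 0.07 (adjusted p = 0.00108). Psmd1 had 129, 125 and 114 CPM in KO-labelled curdlan libraries and 138, 138 and 140.3 CPM in WT curdlan libraries, without overlap. It was lower at a log2 change of -0.18 ± 0.06 (adjusted p = 0.0369), a call kept in 2 of the 6 fits that each left out a library. Psmd2, the other scaffold, passed the threshold in none of the comparisons.

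The lid holds the deubiquitinase Psmd14 and scaffold subunits. Psmd8 had the highest CPM of the 42 genes, with 406, 438 and 389 CPM in KO-labelled curdlan libraries, 328, 336 and 322 CPM in KO-labelled libraries without it, 323, 305 and 304 CPM in WT curdlan libraries and 279.6, 265 and 268 CPM in WT libraries without it. Curdlan and unstimulated libraries did not overlap within either label, nor did the labels within either state. Psmd8 was higher in KO-labelled than in WT cells by 0.40 ± 0.07 with curdlan (adjusted p = 0.000285) and by 0.28 ± 0.07 in its absence (adjusted p = 0.00392). It was higher with curdlan by 0.32 ± 0.07 in KO-labelled cells (adjusted p = 0.00334) and by 0.20 ± 0.07 in WT cells (adjusted p = 0.0494). The difference of these responses was 0.12, with an interval of -0.08 to 0.32. In WT cells the curdlan call of Psmd8 was kept in 0 of the 6 fits that each left out a library.

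Psmd3, another lid subunit, had 80.0, 75.4 and 75.8 CPM in KO-labelled curdlan libraries, 80.4, 79.3 and 78.0 CPM in KO-labelled libraries without it, 89.2, 93.0 and 88.2 CPM in WT curdlan libraries and 91.0, 93.9 and 84.6 CPM in WT libraries without it. All 6 KO-labelled libraries lay below all 6 WT libraries. It was lower at a log2 change of -0.23 ± 0.06 with curdlan (adjusted p = 0.00737), a call held in all 13 alternatives tried, and by -0.18 ± 0.06 without curdlan (adjusted p = 0.0265), a call kept in 1 of the 6 fits that each left out a library. Within a library, Psmd8 over Psmd3 per kilobase averaged 8.67 ± 0.66 in KO-labelled curdlan libraries, 6.74 ± 0.13 in KO-labelled libraries without it, 5.61 ± 0.28 in WT curdlan libraries and 4.91 ± 0.29 in WT libraries without it (SD, n = 3 each). Psmd13 had 97.2, 134 and 109 CPM in KO-labelled curdlan libraries, 87.0, 94.0 and 91.3 CPM in KO-labelled libraries without it, 99.4, 95.2 and 93.8 CPM in WT curdlan libraries and 99.7, 97.4 and 95.4 CPM in WT libraries without it. KO-labelled curdlan library 4 stood well above the rest. The increase with curdlan in KO-labelled cells of 0.32 ± 0.10 (adjusted p = 0.0262) was lost without KO-labelled curdlan library 4 or unstimulated library 1 or 5. Exons of Sirt3 on the other strand cover 10.1% of the exon length of Psmd13, where unstranded reads of the pair cannot be told apart. Psmd6, Psmd7, Psmd11, Psmd12 and Psmd14 passed the threshold in none of the comparisons.

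The assembly chaperones Psmd5, Psmd9 and Psmd10 help the ATPase ring form and do not stay in the finished particle. None of the 3 passed the threshold in any comparison under edgeR. Psmd9, with the largest changes, had 20.3, 27.6 and 19.6 CPM in KO-labelled curdlan libraries, 18.6, 20.7 and 19.4 CPM in KO-labelled libraries without it, 19.8, 19.5 and 19.4 CPM in WT curdlan libraries and 22.2, 20.8 and 20.8 CPM in WT libraries without it. The high value of KO-labelled curdlan library 4 set it apart from the other 11. An antisense gene, Gm26745, covers 25.5% of the exon length of Psmd9, and unstranded reads of the pair cannot be told apart.

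The activators gave the largest changes among genes with more than a few CPM, and of the 4 the interferon-inducible pair Psme1 and Psme2 passed the threshold. Psme2 had 185, 239 and 203 CPM in KO-labelled curdlan libraries, 142, 161 and 149 CPM in KO-labelled libraries without it, 140.0, 128 and 128 CPM in WT curdlan libraries and 133, 121 and 123 CPM in WT libraries without it. The KO-labelled curdlan libraries lay above the other 9. With curdlan, Psme2 was 1.58 times as high in KO-labelled as in WT cells (log2 0.66 ± 0.09, adjusted p = 0.000101). In KO-labelled cells it was 1.39 times as high with curdlan as without it (0.47 ± 0.09, adjusted p = 0.00282), and in WT cells the change was 0.07 (interval -0.13 to 0.27). Without curdlan it was higher in KO-labelled cells by 0.26 ± 0.09 (adjusted p = 0.0359), a call kept in 2 of the 6 fits that each left out a library.

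Psme1, its partner in the cap, had 176, 183 and 178 CPM in KO-labelled curdlan libraries, 149.8, 154 and 144 CPM in KO-labelled libraries without it, 134, 125 and 130.3 CPM in WT curdlan libraries and 140.5, 131 and 133 CPM in WT libraries without it. The KO-labelled curdlan libraries lay closely together above the other 9. Psme1 was higher by 0.46 ± 0.06 in KO-labelled against WT cells with curdlan (adjusted p = 5.04e-05), and with curdlan it was higher by 0.26 ± 0.06 in KO-labelled cells (adjusted p = 0.00611). In WT cells the change was -0.05 (interval -0.18 to 0.07). The difference of the responses was 0.32 ± 0.08 (adjusted p = 0.0490), and 4 of 18 alternatives kept this call. For Psme2 the same difference was 0.40 ± 0.13 and did not pass the threshold (adjusted p = 0.0882). In the authors' deposited table, Psme1 and Psme2 differed by log2 0.46 and 0.65 between KO-labelled and WT cells with curdlan, with adjusted p of 1.31e-06 and 2.51e-06.

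Psme3, the nuclear relative of this pair, and Psme4, a separate cap protein, passed the threshold in none of the comparisons. Psme3 ran from 92.1 to 106 CPM and Psme4 from 81.5 to 109 CPM over the 12 libraries. Within a library, Psme2 over Psme3 per kilobase was 2.96, 4 and 3.37 in KO-labelled curdlan libraries, 2.51, 2.82 and 2.43 in KO-labelled libraries without it, 2.22, 2.09 and 2.13 in WT curdlan libraries and 2.41, 1.99 and 2.10 in WT libraries without it. Psme1 over Psme3 averaged 2.35 ± 0.09, 2.05 ± 0.16, 1.69 ± 0.05 and 1.86 ± 0.16 in the same order (SD, n = 3 each). Both ratios were highest in KO-labelled curdlan libraries.

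Psme2b had 39.7, 53.1 and 41.6 CPM in KO-labelled curdlan libraries, 30.5, 32.1 and 32.4 CPM in KO-labelled libraries without it, 29.6, 26.9 and 28.6 CPM in WT curdlan libraries and 28.2, 26.2 and 25.1 CPM in WT libraries without it. Its transcript is 99.4% identical to that of Psme2 over 794 aligned bases, and 68.7% of its 50-base windows occur in Psme2, so its reads and those of Psme2 cannot be told apart with certainty. It was higher with curdlan in KO-labelled cells by 0.50 ± 0.10 (adjusted p = 0.00316), and in KO-labelled against WT cells with curdlan by 0.66 ± 0.10 (adjusted p = 0.000182).

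The tissue-restricted genes were near the bottom of the measured range. Psma8 had 3.16, 3.65 and 2.47 CPM in KO-labelled curdlan libraries, 3.42, 2.74 and 1.98 CPM in KO-labelled libraries without it, 1.64, 2.16 and 2.03 CPM in WT curdlan libraries and 2.18, 2.53 and 2.52 CPM in WT libraries without it. With curdlan it was higher in KO-labelled cells by 0.67 ± 0.20 (adjusted p = 0.0151). This call was lost without KO-labelled curdlan library 4 or WT curdlan library 1. Psmb11 had 3.05, 2.49 and 3.09 CPM in KO-labelled curdlan libraries, 2.5, 2.46 and 2.53 CPM in KO-labelled libraries without it, 1.93, 2.16 and 1.74 CPM in WT curdlan libraries and 2.48, 2.27 and 1.93 CPM in WT libraries without it. With curdlan it was higher in KO-labelled cells by 0.57 ± 0.14 (adjusted p = 0.00396). For both, the labels did not overlap with curdlan.

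Psmc3ip was the member with the largest difference between genotypes. It had 1.4, 0.995 and 1.61 CPM in KO-labelled curdlan libraries, 1.31, 1.4 and 1.92 CPM in KO-labelled libraries without it, 3.09, 2.59 and 2.64 CPM in WT curdlan libraries and 2.94, 2.70 and 2.75 CPM in WT libraries without it. All 6 KO-labelled libraries lay below all 6 WT libraries. The change was -1.05 ± 0.18 with curdlan (adjusted p = 0.000499) and -0.85 ± 0.17 without it (adjusted p = 0.00172), and both calls held in all 13 alternatives tried. Exons of Mlx cover 21.2% of its length on the other strand.

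The list of other pathway genes held 31 measured ones. Of these, 4 were higher and 8 lower with curdlan in KO-labelled cells, 3 and 4 with curdlan in WT cells, 3 and 9 in KO-labelled against WT cells without curdlan, and 8 and 11 with it. In the difference of the responses, 0 were higher and 3 lower. The shares of all tested genes given above for the same comparisons were 14.0% and 14.6%, 11.4% and 8.40%, 21.1% and 23.3%, 24.7% and 26.8%, and 1.61% and 3.60%, and several of the counts lie near them. Of the interferon-induced catalytic subunits, Psmb10, the counterpart of Psmb7, had 82.7, 119 and 92.6 CPM in KO-labelled curdlan libraries, 70.4, 68.4 and 67.5 CPM in KO-labelled libraries without it, 61.5, 53.8 and 59.9 CPM in WT curdlan libraries and 65.9, 57.8 and 51.3 CPM in WT libraries without it. With curdlan it was higher in KO-labelled cells by 0.75 ± 0.12 (adjusted p = 0.000335), and Psmb8, the counterpart of Psmb5, by 0.21 ± 0.07 (adjusted p = 0.0206). Psmb9 was not analysed here.

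Assembly factors of the core particle, of which 5 were measured, included 4 that were lower in KO-labelled cells without curdlan, where 23.3% of all tested genes were. The pair with the largest changes was Psmg2, at -0.73 ± 0.10 (adjusted p = 7.9e-05), and Psmg3, at -0.57 ± 0.14 (adjusted p = 0.0052). Pomp, which seats the beta ring, was higher with curdlan in KO-labelled cells by 0.50 ± 0.12 (adjusted p = 0.00853). Among 12 associated proteins, 2 were higher and 6 lower in KO-labelled against WT cells with curdlan, where 24.7% and 26.8% of all tested genes were. Ube3c, a ubiquitin ligase found on proteasomes, was lower at a log2 change of -0.73 ± 0.12 (adjusted p = 0.00027), and Sem1, a small lid protein, was higher by 0.58 ± 0.12 (adjusted p = 0.0015). Of 6 genes for ubiquitin and its activating enzymes, 2 were higher and 2 lower in that comparison, close to those shares, with Rps27a at 0.55 ± 0.12 (adjusted p = 0.00169) and Uba6 at -0.54 ± 0.12 (adjusted p = 0.00284).

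Nfe2l2 encodes the factor of the antioxidant response. It had 1651, 1560 and 1489 CPM in KO-labelled curdlan libraries, 1072, 1175 and 1176 CPM in KO-labelled libraries without it, 1129, 1055 and 1090 CPM in WT curdlan libraries and 475, 467 and 523 CPM in WT libraries without it. It was higher with curdlan by 0.46 ± 0.08 in KO-labelled cells (adjusted p = 0.00102) and by 1.16 ± 0.08 in WT cells (adjusted p = 1.77e-06), and these responses differed by -0.70 ± 0.11 (adjusted p = 0.00652). Nfe2l1, its relative known for raising proteasome genes when proteasomes are inhibited, had 261, 247 and 240.0 CPM in KO-labelled curdlan libraries, 328, 274 and 295 CPM in KO-labelled libraries without it, 285, 299.6 and 312 CPM in WT curdlan libraries and 223, 236 and 249.8 CPM in WT libraries without it. It fell with curdlan by 0.26 on the log2 scale in KO-labelled cells (-0.26 ± 0.08, adjusted p = 0.028) and rose by 0.34 ± 0.08 in WT cells (adjusted p = 0.0101), a difference of -0.60 ± 0.11 (adjusted p = 0.0126). Ddi2, the protease that activates the Nfe2l1 protein, fell by 0.46 on the log2 scale in KO-labelled cells (adjusted p = 0.000547) and its response also differed between genotypes, by -0.40 ± 0.10 (adjusted p = 0.0364).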

How the data were processed

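Counts per gene in 12 libraries were deposited by the authors as raw whole numbers, not normalized. Per the labels' protocols, RNA was prepared with an Illumina TruSeq kit of a version that does not mark strand. The submitters' processing notes name TopHat2 2.4.2a and featureCounts 1.4.6, with FastQC 0.11.1 and SAMtools 1.2, and DESeq2 1.8.2 for comparisons. For the counts, genome build and annotation were not given in the sources used here. One of the authors' deposited tables, of KO against WT with curdlan, gives log2 fold changes and p-values, raw and adjusted, per the file headers. A second deposited table, named an interaction, lay nearest to KO against WT without curdlan (Pearson r = 0.9965 across 18981 genes, which are not independent replicates) and was not used further, nor were 24 columns of values per library in these tables. The WT curdlan columns of the first table carry other numbers than the same columns of the count table.

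Genes passing edgeR's filterByExpr by group were scaled by TMM and tested two-sided by the quasi-likelihood F-test of edgeR 4.0.16 under R 4.3.3, in 1 fit of 12 libraries with 4 group means, adjusted by Benjamini-Hochberg over 18981 genes, with a threshold of 0.05. CPM use the effective library sizes, and intervals are 95%. Exon lengths are those of GENCODE M21 (GRCm38), and promoters are RefSeq's. The script was tested on simulated counts. Alternatives were DESeq2 size factors, library size alone, upper-quartile scaling, no filter, the Wald test of DESeq2 1.42.0, only the groups compared, library number as a term, and each library left out. Libraries within each group varied beyond counting noise (chi-square per degree of freedom 9.15 to 77.1). Within a genotype, libraries of the same number deviated together between states. Their correlations over 9109 genes were 0.43 and 0.84 in KO-labelled and 0.70, 0.53 and 0.22 in WT cells. Some libraries of unlike number did so about as much. KO-labelled curdlan library 2 gave 0.45 with unstimulated library 1, and curdlan library 4 gave 0.48 with unstimulated library 2. The sample titles number the libraries otherwise, and by the titles each of these 2 pairs shares a number. WT curdlan library 4 gave 0.20 with unstimulated library 2. Whether the numbers of the library names pair libraries is therefore not settled. In KO-labelled cells the fit with library number as a term rests on the 2 numbers shared between library names. Pairing by the sample titles was not tested.

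Values in each library are given for the catalytic subunits, for up to 4 genes higher and 4 lower per comparison by size, and for the gene with the largest change in each role, and of the other pathway genes up to 2 per group and comparison are named by size among those past the threshold, with the values of Nfe2l1 and Ddi2 also where other genes of the group changed more. The genes and lists were chosen with earlier results of these data known.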

Additional observations from a re-analysis of the deposited data

Results flagged for a closer look

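For Psme1 the curdlan response differed between KO-labelled and WT cells, by 0.32 log2 units in the test of the difference itself (edgeR, adjusted p = 0.0490, interval 0.14 to 0.50). The gene was higher with curdlan by 0.26 in KO-labelled cells, where every curdlan library lay above every unstimulated one, and the change was -0.05 in WT cells, where the groups overlapped. Over 18 alternatives the difference ran from 0.25 to 0.36 and the adjusted p from 0.00214 to 0.139. Of the 12 fits that each left out a library, the one without KO-labelled curdlan library 2 kept the call. That fit also called 1323 of all tested genes higher, against 305 with all libraries.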

How the results depend on the processing

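Counts of the 42 genes past the threshold depended on scaling and on single libraries. With library size alone the higher and lower counts were 2 and 6 for curdlan in KO-labelled cells, 0 and 8 for curdlan in WT, 0 and 0 for the difference of the responses, 0 and 23 for KO-labelled against WT without curdlan, and 3 and 19 with it. The same scaling turned the sign of Psmc4 for curdlan in KO-labelled cells (-0.022) and of Psma2 (-0.047), Psma3 (-0.083), Psmb1 (-0.029) and Psmc1 (-0.079) for KO-labelled against WT with curdlan. It moved all genes together, as the medians in the report show. For curdlan in WT the higher count was 0 under upper-quartile scaling and 0 with no filter. Over all tested genes 1963 and 2017 were higher in these fits, against 2164 in the report. For the difference the higher count was 0 with DESeq2 size factors, 2 under upper-quartile scaling and 0 with no filter. Over all tested genes 291, 405 and 253 were higher in these fits, against 305 in the report. By the Wald test the count was 6, and that test called 907 of all genes higher. With no filter 27873 genes were tested. For KO-labelled against WT without curdlan the higher count was 5 with DESeq2 size factors and 5 by the Wald test. Over all tested genes these called 4124 and 4087 higher, against 4007 in the report. The lower count was 2 with no filter, where 4446 of all tested genes were lower, against 4421. With only the groups compared, 4 genes were higher with curdlan in KO-labelled cells. In that fit 1595 of 17805 tested genes were higher, against 2658 of 18981 in the report. For the rest the cause was not tested.

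With library number as a replicate block within genotype, 7 genes were higher with curdlan in KO-labelled cells, 2 were higher and 2 lower in WT, and 2 were higher in the difference. Over all tested genes 2737, 3526 and 1059 were higher in the same order, and 3750 were lower in WT. Without the block 2658, 2164 and 305 were higher and 1595 lower. Across genotypes the numbers do not pair libraries, and the block gave 4 higher and 5 lower without curdlan, and 11 and 2 with it. Over all tested genes this block gave 4118 higher and 4574 lower without curdlan, and 4733 and 5228 with it. The fit that left the block out gave 4007 and 4421, and 4682 and 5080.

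Leaving out 1 library at a time gave 5 to 16 higher genes for curdlan in KO-labelled cells, 0 to 1 for curdlan in WT and 0 to 9 for the difference. Over all tested genes the higher calls ran from 1710 to 3038, from 1454 to 1890 and from 85 to 1323 in the same order. For KO-labelled against WT, leaving out 1 library gave 2 to 3 higher and 1 to 3 lower without curdlan, and 9 to 16 higher and 2 to 4 lower with it. Over all tested genes these fits called 3369 to 3595 higher and 3730 to 3995 lower without curdlan. With curdlan they called 3723 to 4612 higher and 4286 to 5088 lower. The lowest count of a gene in a library was 36, so depth limits Psma8, Psmb11 and Psmc3ip most.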
